A study of Rattus norvegicus with 40 samples.

Results

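The 10 genes described here encode the neurofilament subunits Nefl, Nefm and Nefh, the neuronal intermediate filament proteins Ina and Prph, the neuronal β-tubulin Tubb3, the microtubule regulators Stmn2, Map1b and Mapt, and the abundant neuronal enzyme Uchl1. They were chosen by symbol from 14217 genes, and each was read on the probe set with the highest mean log2(signal + 16) over all 40 arrays. These 10 genes have 18 probe sets in all, and the 8 other probe sets, which belong to 6 of the genes, are given beside the brightest. The arrays (Rat230_2) measured mRNA in single dorsal root ganglia (DRGs) of male Sprague-Dawley rats, 4 weeks after surgery. In 5 rats the L5 spinal nerve was tightly tied on the operated side, distal to the DRG (spinal nerve ligation, SNL), and 5 sham rats had the same operation without a ligature. The ipsilateral (operated side) and contralateral L4 and L5 DRGs of each rat give 8 groups of 5 arrays. The ligated L5 DRG holds the axotomized neurons, while the L4 nerve beside it was left intact. The age of the rats was not given in the sources used here. Each DRG is a mixture of cells, so fewer neurons and less RNA per neuron cannot be told apart in any value below.

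Neurofilaments are heteropolymers that fill the axoplasm of large myelinated axons and set their calibre. Nefl is the core subunit on which Nefm and Nefh assemble, and the long tails of Nefm and Nefh project from the filament. Ina (α-internexin) co-assembles with them mainly in central neurons, and Prph (peripherin) is the intermediate filament protein typical of peripheral, and above all small, sensory neurons. Microtubules, the tracks of axonal transport, are built of tubulin, stabilised by Mapt (tau) and Map1b, and destabilised by stathmins such as Stmn2. After axotomy, DRG neurons are known to make less neurofilament and more peripherin and growth-associated proteins.

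The ligated L5 DRG expressed less of all 3 neurofilament subunits and of Mapt than the contralateral L5 DRG. In the uninjured L4 DRG of the same rats Nefl, Nefm and Nefh had higher signals on the ipsilateral side on their brightest probe sets, but the second Nefl probe set was lower and the rise of Nefl turned to a fall after quantile normalization. In sham rats 9 of the 10 genes were higher on the operated side at L5 and 8 at L4, as were most other bright genes on those arrays.

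Array scale and RNA quality bear on all of these values. Signals of the MAS 5 algorithm are linear intensities scaled to a common trimmed mean, and the median signal of an array ranged from 28.6 to 55.6. Arrays of 1 group correlated at 0.942 to 0.996. In sham rats the median change of the 360 genes with a mean signal above 1000 was 0.40 at L5 and 0.29 at L4 on the log2 scale, and after quantile normalization it was 0.03 and 0.00. The corresponding medians in SNL rats were 0.02 at L5 and -0.03 at L4. All of the 10 genes but Ina lie in this bright class. Over all 31042 probe sets the median change was 0.12 in SNL L5, 0.07 in SNL L4 and 0.06 in both sham comparisons, and scaling to equal medians moved it to 0.00, -0.02, -0.11 and -0.07. The GAPDH 3′ to 5′ log2 ratio, which rises as RNA degrades, was higher ipsilaterally by 0.641 in SNL L5, 0.951 in SNL L4 and 0.429 in Sham L4 (exact two-sided permutation p = 0.00794 in each, the smallest that 5 against 5 arrays allow), and by 0.0938 in Sham L5 (exact permutation p = 0.175). The beta-actin ratio differed otherwise, by 1.14 in SNL L5, 0.773 in SNL L4, 0.217 in Sham L5 and -0.214 in Sham L4, with sides apart in SNL L5 alone, so the RNA quality controls differ in order and, in Sham L4, in sign. The part of scale and RNA quality in the changes below was not tested beyond the scalings given. The SNL L5 arrays carry titles of another array series than the other 30 arrays, so that both sides of any comparison come from 1 series.

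**Figure D1:**
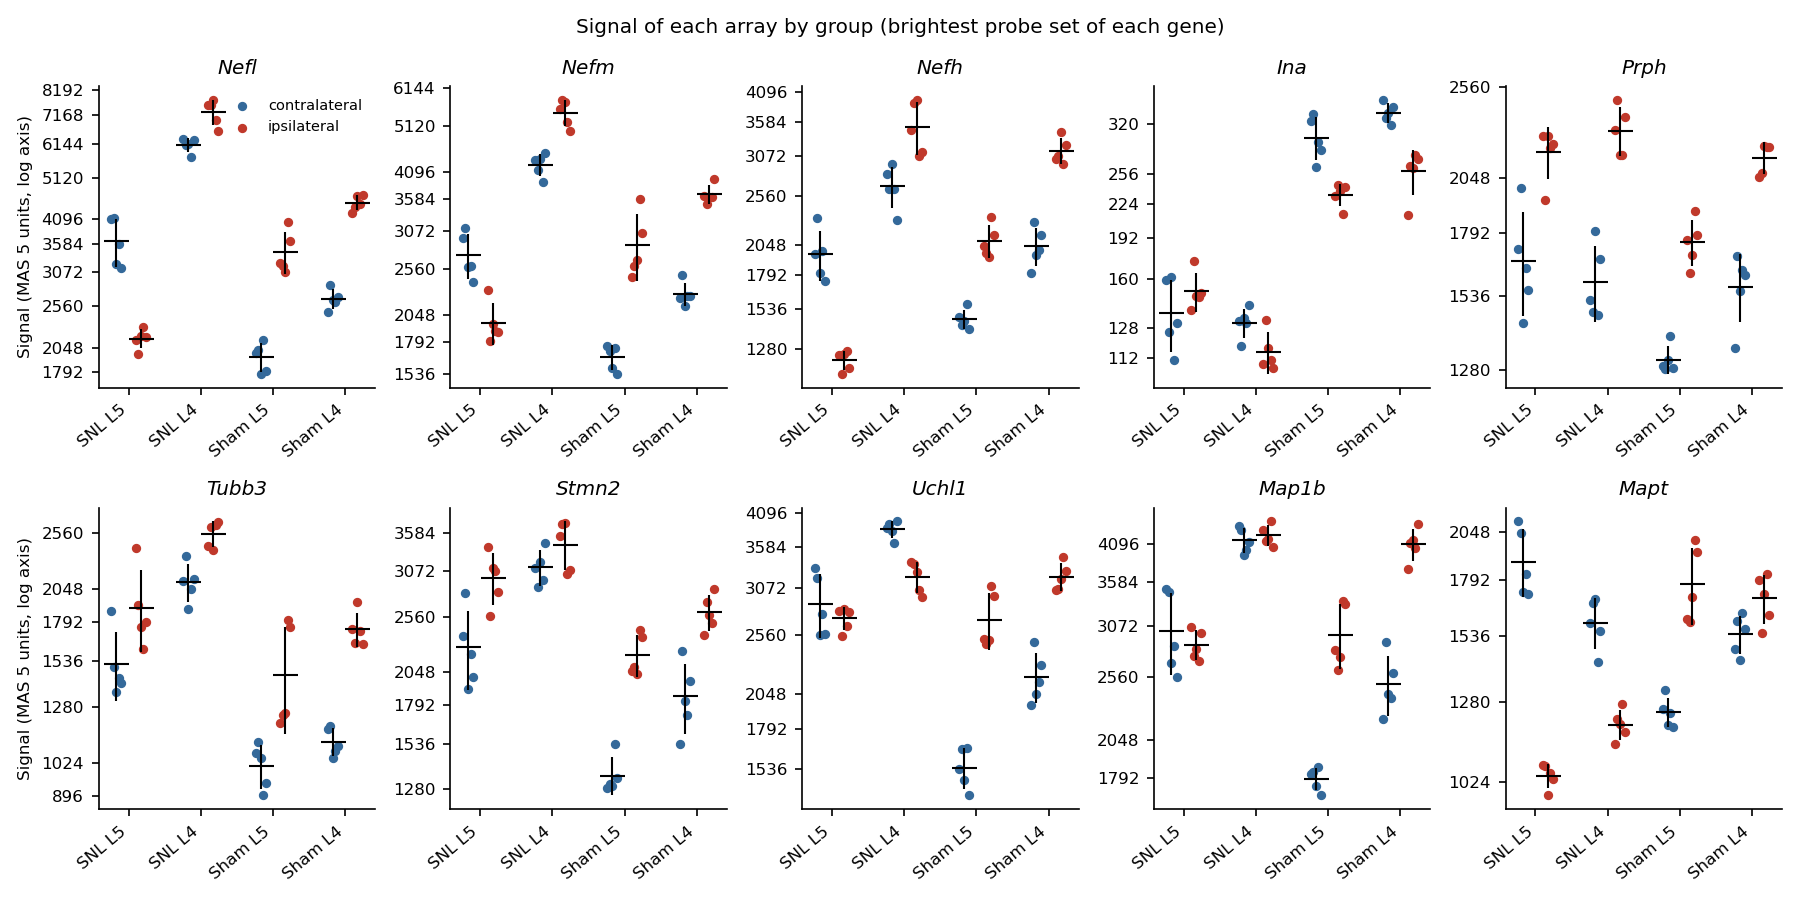
Signal of the brightest probe set of each of the 10 genes (MAS 5 units, log2-spaced axis that differs between panels) in the 8 groups of 5 arrays; blue points are contralateral and red points ipsilateral DRGs, and bars give the mean and SD. Nefl, Nefm, Nefh and Mapt are lower ipsilaterally in SNL L5 with no overlap of the sides, and 9 genes are higher ipsilaterally in Sham L5, where Ina is lower.

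Sequence upstream of the gene is shown for the 5 genes with an entry in the RefSeq promoter table. On their brightest probe sets Prph, Tubb3, Uchl1 and Map1b rose in sham rats, as did most bright genes, while Ina fell. The second Ina probe set rose in sham rats. In the ligated DRG Prph and Tubb3 were called higher and Uchl1 and Map1b were not called. A link between these sequences and the changes was not tested. The 100 bases before the transcription start are printed 5′ to 3′ on the gene's strand (build GRCr8), and capitals mark TATAA on either strand, the core of a TATA box.
Ina (chr1:255838029-255838128, plus strand): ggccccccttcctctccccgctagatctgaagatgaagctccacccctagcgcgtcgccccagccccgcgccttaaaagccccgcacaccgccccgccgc
Prph (chr7:132097189-132097288, plus strand): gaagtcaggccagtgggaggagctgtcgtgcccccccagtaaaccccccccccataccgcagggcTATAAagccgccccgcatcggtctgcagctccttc
Tubb3 (chr19:68365587-68365686, plus strand): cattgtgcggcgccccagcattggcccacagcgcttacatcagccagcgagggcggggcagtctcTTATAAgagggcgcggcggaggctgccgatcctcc
Uchl1 (chr14:41849418-41849517, minus strand): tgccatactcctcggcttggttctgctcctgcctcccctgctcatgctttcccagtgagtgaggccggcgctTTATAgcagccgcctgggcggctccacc
Map1b (chr2:32644472-32644571, minus strand): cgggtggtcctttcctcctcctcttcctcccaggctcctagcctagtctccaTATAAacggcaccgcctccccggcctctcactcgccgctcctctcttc
The first base of the match lies 35 bases before the start in Prph and 48 in Map1b, the Uchl1 match (TTATA) is on the opposite strand, and the Tubb3 run holds 2 overlapping matches, 1 on each strand. TATAA was found in 4 of these 5 windows and in 11.0% of 33469 RefSeq promoter windows of 100 bases. In the 250 bases before the start the GC box GGGCGG was found, on either strand, in Ina, Prph, Tubb3 and Uchl1 and in 30.5% of all promoters, and CCAAT in Tubb3 and in 34.0%. Neither TGACGTCA (1.59% of all promoters) nor the AP-1 motif TGANTCA (6.34%) was found in any of the 5. The 100 bases shown have a GC content of 63.0% to 71.0%, against a median of 54.0% over all promoters. Nefl and Nefm lie on the same chromosome in that assembly with no protein-coding gene between them.

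In the ligated L5 DRG, 4 of the 10 genes were lower than contralaterally, 3 were higher, and Ina, Uchl1 and Map1b were not called (adjusted p under 0.05 in limma, Benjamini-Hochberg over all probe sets). Of all probe sets 16.8% were called lower and 30.3% higher in this comparison, and of the 360 bright genes 37.2% and 34.4%, so the count of genes called is near that of bright genes. Their median log2 fold change was -0.07.

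Nefl showed signals of 4091, 4125, 3218, 3578 and 3144 in the 5 contralateral L5 DRGs and of 2137, 1978, 2179, 2285 and 2168 in the 5 ligated ones. All 5 ligated DRGs lay below the lowest contralateral one, and the log2 fold change was -0.74 ± 0.08 (SE, adjusted p = 4.30e-07). Nefm, the middle subunit, went from 2966, 3120, 2578, 2598 and 2405 to 2312, 1801, 1959, 1893 and 1880, again without overlap of the sides, and changed by -0.47 ± 0.08 on the log2 scale (adjusted p = 1.00e-04). Nefh, the heavy subunit and a marker of large myelinated sensory neurons, went from 1970, 2318, 1808, 1993 and 1741 to 1247, 1146, 1253, 1272 and 1178, a log2 fold change of -0.68 ± 0.07 (adjusted p = 3.19e-07). All 3 subunits were lower in each of the 5 rats, and lower under both other scalings (Nefl -1.21 after quantile normalization and -0.96 with equal medians, Nefm -0.73 and -0.69, Nefh -0.76 and -0.89). The 3 changes lie below the lower quartile of the bright genes in this comparison, -0.29.

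Mapt, the axonal microtubule-binding protein tau, fell as far. Its signals were 2112, 2043, 1734, 1826 and 1726 contralaterally and 1073, 1070, 986, 1050 and 1033 in the ligated DRG, with no overlap. The log2 fold change was -0.84 ± 0.06 (adjusted p = 5.19e-09), and the fall held under both other scalings. The dimmer Mapt probe sets fell too, by 0.80 (1387071_a_at) and 0.25 (1368137_at) on the log2 scale.

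The rises in the ligated DRG were smaller, and the sides overlapped in each. Prph rose from a mean of 1672 ± 212 (SD, n = 5) to 2183 ± 138, by 0.39 ± 0.08 on the log2 scale (adjusted p = 4.56e-04), and was higher in 4 of 5 rats. Stmn2, a growth-cone stathmin, rose from 2262 ± 353 to 2992 ± 311, by 0.41 ± 0.09 (adjusted p = 0.00172), and was also higher in 4 of 5 rats. Tubb3 rose from 1516 ± 207 to 1901 ± 308, by 0.32 ± 0.10 (adjusted p = 0.0134), and was higher in all 5. Tubb3 missed the threshold in the methods' t-test after Benjamini-Hochberg adjustment (0.0768). All 3 were called higher after quantile normalization (0.25, 0.26 and 0.23), and none was called with equal medians (0.17, 0.19 and 0.10). None of the 10 genes had its sides apart and higher in this comparison, and 4 had them apart and lower. Of all probe sets 20.8% were apart and higher and 13.1% apart and lower, and of bright genes 21.4% and 31.9%.

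Uchl1, a deubiquitinating enzyme used as a pan-neuronal marker, had a log2 fold change of -0.07 ± 0.07 (adjusted p = 0.451), with signals of 2568 to 3319 contralaterally and 2557 to 2828 in the ligated DRG. On its brightest probe set Map1b, a microtubule-associated protein of growing axons, stood at -0.06 ± 0.08 (adjusted p = 0.581). These values depend on the scale: both genes were called lower after quantile normalization (Uchl1 -0.34, Map1b -0.33) and with equal medians (-0.29 and -0.28). Ina lay below the bright class in all groups, with means of 115 to 337 on its brightest probe set. It was not called at 0.13 ± 0.09, with signals of 111 to 161 contralaterally and 139 to 173 in the ligated DRG.

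**Figure D2:**
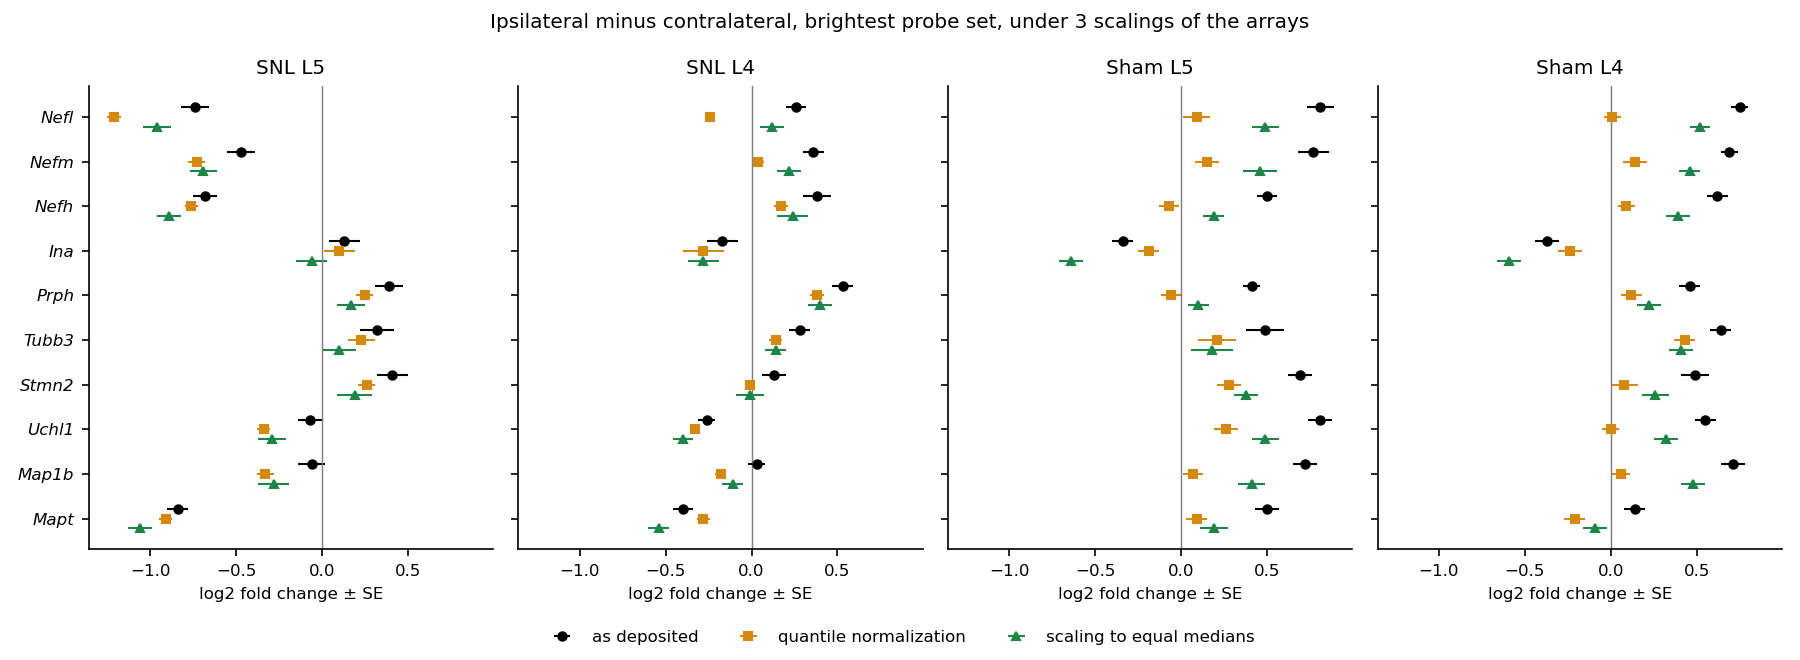
Log2 fold change (ipsilateral minus contralateral, ± SE) of the 10 genes in the 4 comparisons, as deposited (black), after quantile normalization (orange) and with equal array medians (green). The neurofilament subunits and Mapt are below 0 in SNL L5 under all 3 scalings, while the sham values of most bright genes move towards 0 after quantile normalization (Nefl in Sham L4 from 0.75 to 0.01) and Nefl in SNL L4 changes sign (0.26 to -0.24).

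The balance among filament proteins was read as ratios within each array, which a single scale factor for the array leaves in place. The log2 ratio of Nefl to Prph was 1.0 to 1.24 in the contralateral L5 DRGs of SNL rats and -0.09 to 0.05 in the ligated ones, a shift of -1.13 without overlap. In SNL L4 this ratio shifted in the same direction, by -0.28, with overlap of the sides. In sham rats it shifted the other way on these probe sets, by 0.40 at L5 and 0.29 at L4, without overlap. After quantile normalization the changes of Nefl and Prph were 0.09 and -0.06 in Sham L5, and 0.01 and 0.12 in Sham L4. The ratio of Tubb3 to Nefl rose by 1.06 in the ligated DRG, from between -1.45 and -1.12 to between -0.50 and 0.17, and its sides overlapped in the other 3 comparisons. Among the subunits, Nefl lost more than Nefm in the ligated DRG, where their log2 ratio went from 0.32 to 0.46 down to -0.11 to 0.27, a shift of -0.28 without overlap. A smaller shift of this ratio in the same direction, -0.11, was seen in SNL L4 (0.48 to 0.56 contralaterally, 0.38 to 0.45 ipsilaterally), and the sides overlapped in sham rats. The ratio of Nefl to Nefh differed between sides without overlap in Sham L5 alone among the 4 comparisons, by 0.31. No p is given for these ratios, which were described by the overlap of 5 arrays with 5. Each ratio used the brightest probe sets. The second Nefl probe set was called the other way in SNL L4 (-0.52 against 0.26), and ratios with it were not computed. In Sham L5 and L4 that probe set rose by 0.41 and 0.29, less than the 0.81 and 0.75 of the brightest. Prph rose there by 0.41 and 0.46, and Nefh by 0.50 and 0.62. The SNL L4 and sham values of the Nefl ratios therefore rest on the probe set chosen.

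**Figure D3:**
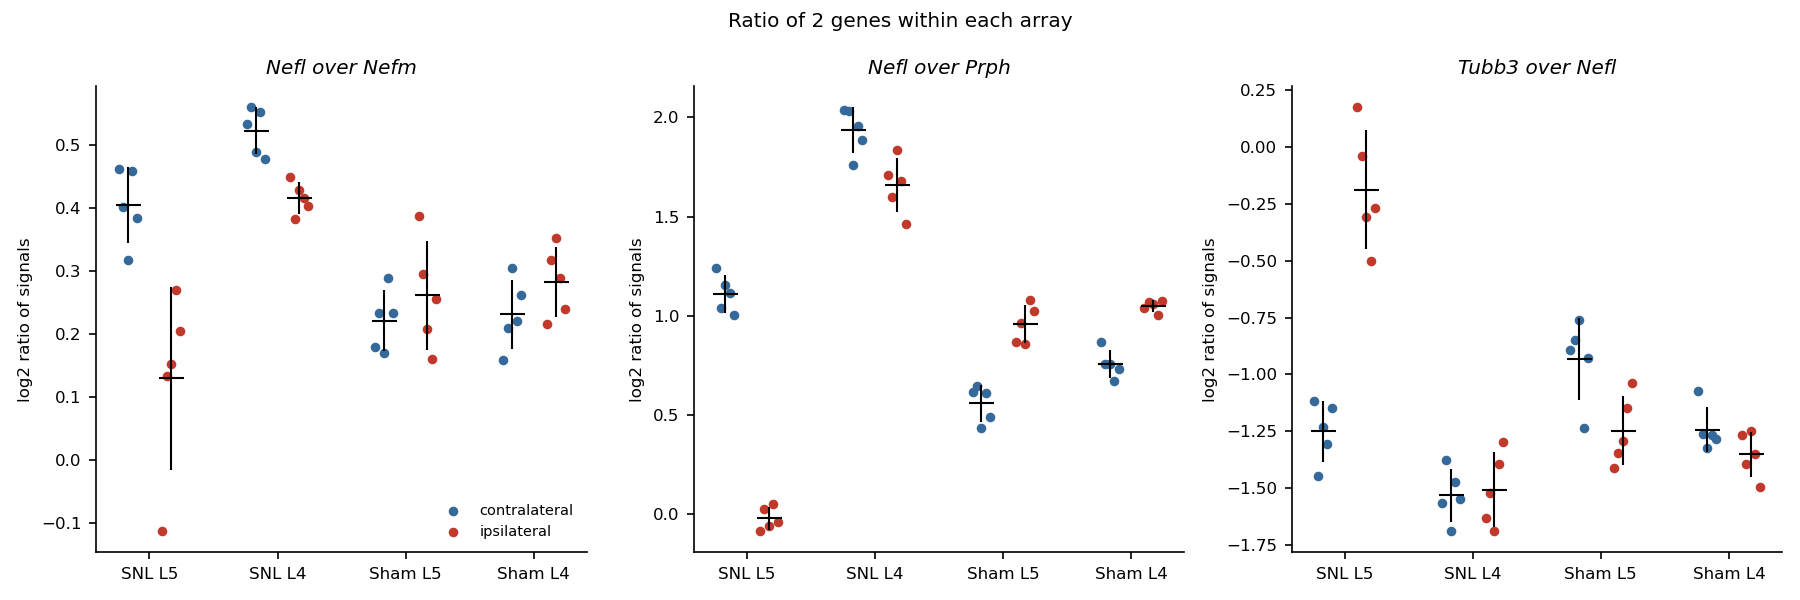
Log2 ratio of 2 genes on the same array (Nefl over Nefm, Nefl over Prph, Tubb3 over Nefl) in the 4 comparisons; blue points are contralateral and red points ipsilateral arrays, and bars give the mean and SD of 5. In SNL L5 the Nefl to Prph ratio falls from a mean of 1.11 to -0.02 and the Tubb3 to Nefl ratio rises from -1.25 to -0.19, both without overlap.

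In the L4 DRG beside the ligation, 5 of the 10 genes were called higher (Nefl, Nefm, Nefh, Prph, Tubb3), 2 lower (Uchl1, Mapt) and 3 neither, where 10.1% of all probe sets were called higher and 9.01% lower, and 24.2% and 33.1% of the bright genes. In these 7 genes the sides did not overlap, as in 7.63% of probe sets on the higher side and 7.38% on the lower. Among bright genes these shares were 21.9% and 30.0%. Prph rose on all scales. Its signals were 1519, 1475, 1798, 1464 and 1679 contralaterally and 2308, 2483, 2167, 2170 and 2379 ipsilaterally, a log2 fold change of 0.53 ± 0.06 (adjusted p = 1.11e-05), with 0.38 after quantile normalization and 0.40 with equal medians, both called. Prph also rose in Sham L4, by 0.46 ± 0.06 (adjusted p = 4.74e-05). Its side difference in SNL against sham rats at L4 was 0.08 ± 0.09 and not called (adjusted p = 0.635). After quantile normalization that difference was 0.26 and called. Mapt and Uchl1 fell on all scales. Mapt went from 1594, 1685, 1703, 1427 and 1556 to 1136, 1219, 1201, 1271 and 1175, by -0.40 ± 0.06 (adjusted p = 6.54e-05), and Uchl1 from 3859, 3924, 3816, 3650 and 3962 to 3387, 3361, 3257, 3040 and 2966, by -0.26 ± 0.05 (adjusted p = 0.00171). For Mapt this was seen on its brightest probe set and on neither of the other 2, which stood at -0.03 and 0.17 and were not called.

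The neurofilament subunits were less settled at L4. Nefl signals were 6291, 6090, 6136, 5726 and 6256 contralaterally and 7580, 7566, 7759, 6978 and 6593 ipsilaterally, a log2 fold change of 0.26 ± 0.06 (adjusted p = 0.00358). The same gene on its second probe set, 1370059_at, went from 2084, 2174, 2079, 2004 and 2076 to 1452, 1365, 1450, 1465 and 1528, a log2 fold change of -0.52 ± 0.05 (adjusted p = 8.58e-07), so that 2 probe sets annotated to 1 gene were called in opposite directions on the same arrays. Quantile normalization gave a fall on both, -0.24 and -0.41, and with equal medians the first was not called (0.12). Nefm rose by 0.36 ± 0.06 (adjusted p = 2.23e-04, mean 4244 to 5462) and Nefh by 0.38 ± 0.08 (adjusted p = 0.00230, mean 2674 to 3499). The rise of Nefm was not called after quantile normalization (0.04) and that of Nefh not with equal medians (0.24). Tubb3 was called higher at 0.28 ± 0.06 (adjusted p = 0.00253) and not with equal medians (0.14). Stmn2 stood at 0.13 ± 0.07 (adjusted p = 0.220) on its brightest probe set and fell by 0.38 on its other, 1370042_at. The GAPDH 3′ to 5′ ratio was 1.32 to 1.46 contralaterally and 2.15 to 2.47 ipsilaterally in this comparison, and the beta-actin ratio 3.89 to 4.34 and 4.12 to 5.33. Whether this bears on probe sets of 1 gene that disagree was not tested.

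Map1b showed the widest gap between probe sets of 1 gene. Probe set 1395357_at measured 1558, 1411, 1306, 1312 and 1307 in the contralateral and 282, 245, 241, 268 and 239 in the ligated L5 DRG, a log2 fold change of -2.36 ± 0.06 (adjusted p = 8.54e-15). In the L4 DRGs of the same rats it went from 1345, 1404, 1260, 1275 and 1234 to 211, 177, 207, 215 and 208, or -2.59 ± 0.06 (adjusted p = 5.75e-14). The ipsilateral DRGs of SNL rats thus lay far below the contralateral ones at either level, while in sham rats this probe set went from a mean of 852 to 1027 at L5 (0.26 ± 0.06) and from 771 to 777 at L4 (0.01 ± 0.05). The third Map1b probe set, 1371003_at, fell by 1.03 on the log2 scale in SNL L5 and by 0.32 in SNL L4, and was called in neither sham comparison. On the brightest probe set of the gene neither SNL comparison was called. The sources used here do not give the part of the transcript that each probe set covers, so which of these values describes the whole Map1b mRNA cannot be said.

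**Figure D4:**
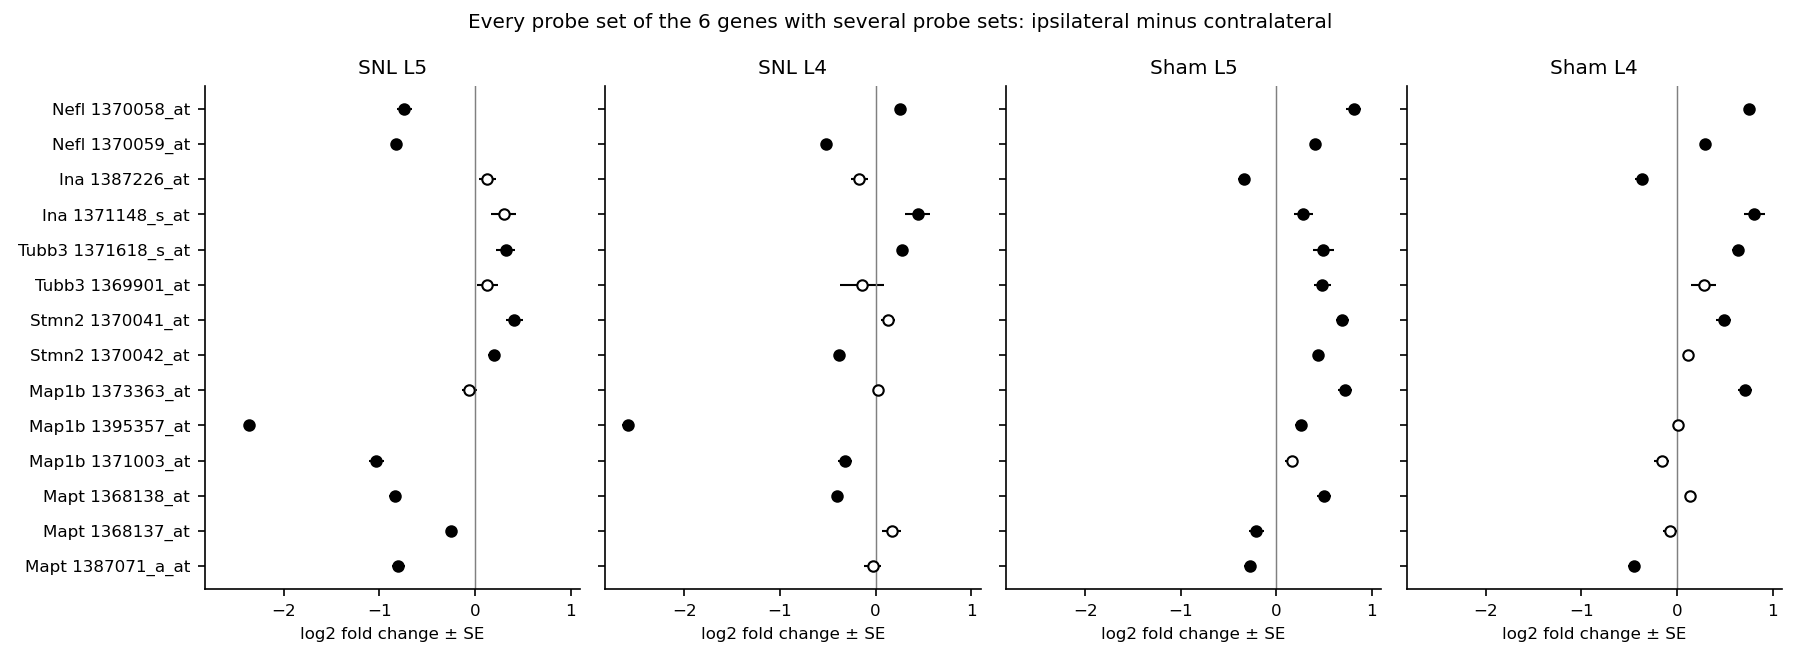
Log2 fold change (ipsilateral minus contralateral, ± SE) of each probe set of the 6 genes with several, brightest first within a gene; filled points are called at an adjusted p under 0.05. The Nefl probe sets agree in sign in SNL L5 (-0.74 and -0.83) and part in SNL L4 (0.26 and -0.52), and Map1b 1395357_at lies at -2.36 and -2.59 in SNL rats against 0.26 and 0.01 in sham rats.

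In sham rats the operated side at L5 was called higher in 9 of the 10 genes and lower in Ina, where 31.1% of all probe sets were called higher and 19.3% lower (21.4% and 28.2% of all genes read on their brightest probe set). Of the 360 bright genes 92.5% were called higher and none lower, so that the 9 bright members rose as nearly all bright genes did. In Sham L4 8 were called higher, Ina lower and Mapt neither (0.14 ± 0.06, adjusted p = 0.0728), against 17.3% and 9.85% of all probe sets and 73.3% and 0.556% of bright genes. In Sham L5 Nefl measured 1989, 2017, 1777, 2136 and 1809 contralaterally and 3227, 3180, 3082, 4021 and 3639 ipsilaterally (0.81 ± 0.08, adjusted p = 8.08e-07), and in Sham L4 2480, 2872, 2640, 2614 and 2691 against 4240, 4365, 4634, 4441 and 4668 (0.75 ± 0.05, adjusted p = 5.99e-08). The sides were apart at either level. Uchl1 rose by 0.81, Nefm by 0.77, Map1b by 0.72 and Stmn2 by 0.69 in Sham L5, which with Nefl lie above the upper quartile of the bright genes, 0.51. Nefh (0.50), Mapt (0.50), Tubb3 (0.49) and Prph (0.41) rose within the quartiles of 0.27 and 0.51. After quantile normalization 2 of the 9 were still called higher in Sham L5, Stmn2 at 0.28 and Uchl1 at 0.26, and in Sham L4 Tubb3 alone of the 8, at 0.43.

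Ina went against the others in sham rats. Its brightest probe set went from 324, 335, 264, 295 and 285 to 232, 244, 237, 214 and 241 in Sham L5 and from 357, 329, 337, 318 and 345 to 213, 265, 263, 279 and 274 in Sham L4, falls of 0.34 and 0.37 on the log2 scale (adjusted p = 4.70e-04 and 0.00117) that were called under all 3 scalings. Its second probe set, with group means of 22.4 to 78.5 the dimmer by far, rose by 0.28 and 0.81 in the same comparisons, so the direction for the gene rests on the probe set chosen. The Mapt probe sets also parted in Sham L5, where the brightest rose by 0.50 and the other 2 fell by 0.28 and 0.21.

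The comparison of the side differences themselves asked what ligation added to the operation. The L5 arrays of SNL and sham rats belong to different array series, so cohort and series cannot be told apart in this comparison. At L5 the side difference was lower in SNL than in sham rats for 6 genes and higher for Ina (0.47 ± 0.11, adjusted p = 0.00130), where 22.3% of all probe sets were called lower and 20.9% higher, and of bright genes 68.9% and 7.50%. Nefl differed by -1.55 ± 0.11 (adjusted p = 1.80e-11), Mapt by -1.34 ± 0.09 (adjusted p = 6.26e-12), Nefm by -1.24 ± 0.12 (adjusted p = 6.99e-09) and Nefh by -1.18 ± 0.09 (adjusted p = 5.01e-11). Uchl1 (-0.88) and Map1b (-0.78) followed. All 6 lie below the lower quartile of the bright genes, -0.69, and all 7 calls held under the other 2 scalings. The second Ina probe set (0.02) and Mapt 1368137_at (-0.03) were not called in this comparison. For Prph, Tubb3 and Stmn2, which rose in both the ligated and the sham L5 DRG, the difference was -0.02 ± 0.09, -0.17 ± 0.16 and -0.28 ± 0.12 and was not called (adjusted p = 0.880, 0.413 and 0.0640). After quantile normalization Prph differed by 0.31 and was called. The call for Stmn2 turns on single arrays: without 1 of 4 arrays it passed, at adjusted p = 0.0326 without the contralateral Sham L5 array of rat 22, 0.0248 and 0.0402 without the contralateral SNL L5 arrays of rats 9 and 48, and 0.0327 without the ligated L5 array of rat 4.

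At L4 the side difference was lower in SNL than in sham rats for 7 genes and higher for none, where 8.28% of all probe sets were called lower and 5.72% higher, and 60.6% of bright genes lower and 3.33% higher. The differences were -0.82 for Uchl1, -0.69 for Map1b, -0.54 for Mapt, -0.49 for Nefl, -0.36 for Tubb3 and Stmn2 and -0.33 for Nefm, beside a median of -0.34 for bright genes. The Mapt difference rests on its brightest probe set: 1387071_a_at was called the other way (0.42 ± 0.11, adjusted p = 0.00714) and 1368137_at stood at 0.24 and was not called. Uchl1, Map1b and Nefl were called under all 3 scalings. Of their other probe sets, Nefl 1370059_at (-0.81) and Map1b 1395357_at (-2.6) were called lower, and Map1b 1371003_at was not called (-0.16, adjusted p = 0.379). The Stmn2 difference (adjusted p = 0.0303) was lost on leaving out any 1 of 7 arrays, with adjusted p of 0.0537 to 0.0627. These were the contralateral sham arrays of rats 1 and 22, the ipsilateral sham arrays of rats 14 and 23, the contralateral SNL array of rat 48 and the ipsilateral SNL arrays of rats 18 and 48. Within SNL rats, whose L5 and L4 arrays are of different series, the side difference was lower at L5 than at L4 for Nefh (-1.06 ± 0.11), Nefl (-1.0 ± 0.10), Nefm (-0.83 ± 0.10) and Mapt (-0.44 ± 0.09), and for no other of the 10, where 8.08% of all probe sets were called lower and 11.1% higher, and 21.7% and 24.7% of bright genes. These 4 calls held under all 3 scalings, and for the second Nefl probe set the difference was -0.31. Among other probe sets of the remaining genes, Stmn2 1370042_at (0.57) and Map1b 1371003_at (-0.71) were called.

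The levels of the 10 genes over the 8 groups followed different orders. Nefl was highest in ipsilateral L4 of SNL rats (mean 7295), then contralateral L4 of SNL rats (6100), ipsilateral L4 of sham rats (4470), contralateral L5 of SNL rats (3631), ipsilateral L5 of sham rats (3430), contralateral L4 of sham rats (2659), the ligated L5 DRG (2150) and contralateral L5 of sham rats (1946). Neighbours in that order did not overlap except the fourth with the fifth and the ligated L5 DRG with contralateral L5 of sham rats. On its brightest probe set Nefl was thus lowest, among SNL groups, in the ligated DRG, yet level there with an uninjured sham group on the deposited scale. On the second Nefl probe set, 1370059_at, the order differed. There the ligated DRG had the lowest mean of the 8 groups, 1062 against 1479 in contralateral L5 of sham rats. Ipsilateral L4 of SNL rats stood at 1452 on that probe set. For Nefh and Mapt the ligated L5 DRG was the lowest of the 8 groups (1219 and 1042), apart from the next. Tubb3 was highest in ipsilateral L4 of SNL rats (2555), apart from the next, as was Prph (2301), which overlapped the ligated L5 DRG (2183). On its brightest probe set Ina had the 4 sham groups above the 4 SNL groups, with means of 233 to 337 against 115 to 151. The lowest sham and the highest SNL group did not overlap. On the second Ina probe set this order was not seen, with sham means of 22.4 to 54.2 and SNL means of 37.5 to 78.5. Levels of SNL L5 against other groups also cross array series.

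The unoperated L4 DRGs of SNL and sham rats stood at different levels on the deposited scale. Contralateral L4 Nefl was 1.19 higher (log2) in SNL than in sham rats on the deposited scale, with no overlap, 0.56 higher with equal medians and 0.08 higher with overlapping arrays after quantile normalization. The same difference for Nefm was 0.90, 0.27 and 0.03 on those 3 scales, and for Nefh it was 0.39, -0.25 and -0.29. Contralateral L4 Ina on its brightest probe set was lower in SNL rats on all 3, by -1.26, -1.84 and -1.12 without overlap. The dimmer second Ina probe set went the other way on the deposited scale, with means of 52.8 in SNL and 24.0 in sham rats. On the second Nefl probe set the contralateral L4 means were 2083 in SNL and 1684 in sham rats. No test was run on these levels.

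Other genes of the axonal cytoskeleton were read in 6 lists. Of all 14217 genes, read on their brightest probe sets, 35.4% were called higher and 19.0% lower in the ligated L5 DRG, and 21.0% were called in either direction in SNL L4. Among 9 measured tubulin isotypes 4 were called higher and 4 lower in the ligated L5 DRG, with a median log2 fold change of 0.06. Tubb6 rose by 2.03 (mean 75.9 to 358) and Tubb2b by 0.99 (1328 to 2652), while Tuba8 fell by 0.97 (57.4 to 21.7). Tubulin genes are close in sequence, and signals of 1 isotype may hold RNA of another. In SNL L4 4 of the 9 rose, led by Tubb2b (0.66), and none fell.

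Of 30 microtubule-associated and microtubule-regulating genes, 10 were higher and 11 lower in the ligated L5 DRG. Stmn4, a neuronal stathmin, rose by 1.66 (108 to 375), while Dpysl4, of the collapsin response mediator family, fell by 1.73 (130 to 28.1) and Map7, a microtubule protein that recruits kinesin-1, by 1.59 (721 to 229). Map7 also fell in SNL L4, by 1.14 (395 to 171), where 4 of the 30 rose and 6 fell. Of 10 other intermediate filament genes 6 rose and 3 fell in the ligated L5 DRG, with a median of 0.59. Gfap, the filament protein of reactive glia, rose by 2.70 (15.3 to 187) and Lmnb1, a nuclear lamin, by 0.98 (176 to 363), while Synm, which encodes synemin, fell by 1.55 (842 to 276). In SNL L4 3 of these rose and 4 fell.

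Motor, membrane-skeleton and actin genes were called in both directions in the ligated L5 DRG. Of 18 kinesin, dynein and dynactin genes 11 fell and 4 rose there (median -0.27). Dync1i1, a dynein intermediate chain, fell by 0.83, Dync1li1, a light intermediate chain, by 0.58 and Kif1a, the motor of synaptic vesicle precursors, by 0.52. In SNL L4 1 of the 18 was called, Klc1 (0.44). Of 10 spectrin, ankyrin and adducin genes 3 fell and 2 rose in the ligated L5 DRG, among them Ank1 (-0.69) and Ank3, the ankyrin of the axon initial segment and nodes (-0.52), with Add3 up by 0.48. Ank3 fell in SNL L4 too, by 0.76. Of 15 actin and growth cone genes 7 rose and 1 fell in the ligated L5 DRG: Gsn, the actin-severing gelsolin, rose by 1.10, Gap43, the growth cone protein of regenerating axons, by 0.94 and Marcksl1 by 0.81. In SNL L4 2 of the 15 rose and 4 fell, and Gap43 was not called (0.13).

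**Figure D5:**
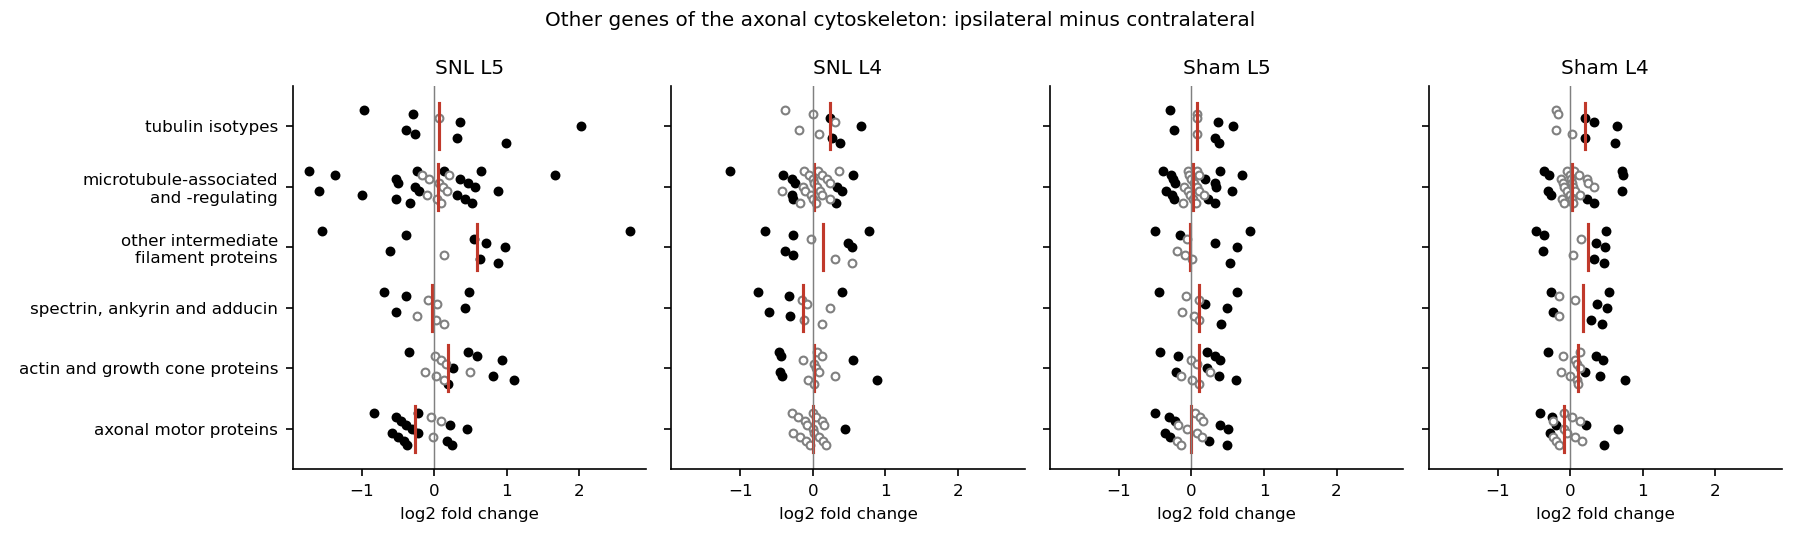
Log2 fold change (ipsilateral minus contralateral) of each measured gene of 6 lists of axonal cytoskeleton genes in the 4 comparisons; filled points are called at an adjusted p under 0.05, open points are not, red lines mark the median of a list, and the height within a row only separates points. In SNL L5 the medians run from -0.27 for the motor proteins to 0.59 for the other intermediate filament proteins, and the largest single change is Gfap at 2.70.

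In sham rats these lists were called in both directions, where of all genes 21.4% were called higher and 28.2% lower at L5, and 12.8% and 13.7% at L4. In Sham L5 the numbers higher and lower were 4 and 2 tubulin isotypes, 8 and 7 microtubule-associated genes, 4 and 2 other filament genes, 4 and 1 spectrin and ankyrin genes, 6 and 3 actin and growth cone genes and 4 and 5 motors. In Sham L4 they were 5 and 0, 5 and 4, 5 and 3, 5 and 2, 5 and 1, and 3 and 4, in the same order. Dpysl2, an axon guidance mediator that binds tubulin, rose by 0.70 in Sham L5 and 0.73 in Sham L4, and Tubb2a by 0.57 and 0.65. After quantile normalization these became 0.17 and 0.26 for Dpysl2 and 0.04 and 0.33 for Tubb2a, and only the Sham L4 values were then called.

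Markers of DRG cells were measured on the same arrays. Neurons were present by Snap25, whose group means ran from 1672 to 3954, and of 5 spinal cord markers Chat, Mog, Olig2 and Slc32a1 were at or below 32.5 in all groups. Sox10, which Schwann cells and satellite glia also express, had group means of 93.6 to 240.0. It rose by 0.99 in the ligated L5 DRG, alone of the 5, and the summed signal of the list was 124 to 150 contralaterally and 231 to 297 there. In the ligated L5 DRG 6 of 8 neuronal markers fell and 1, Gap43, rose (median -0.48), and their summed signal was 7155 to 8365 contralaterally and 6669 to 7543 in the ligated DRG. Of 8 markers of large myelinated neurons 7 fell (median -0.68), led by the calcium-binding protein Pvalb, from 1278 to 18.6, and Nefh is itself on that list. All 6 measured nociceptor markers fell (median -1.87), with a summed signal of 6230 to 7248 contralaterally and 2002 to 2242 in the ligated DRG. In the same comparison 6 of 6 fibroblast markers rose (summed 2746 to 2966 against 7016 to 7745), as did 5 of 6 macrophage markers (352 to 381 against 957 to 1063) and 5 of 5 Schwann cell markers (5894 to 7788 against 7522 to 9864). Of 4 satellite glial markers 1 rose and 1 fell, of 5 endothelial markers 4 rose and 1 fell, and all 4 blood cell markers fell. Of 5 skeletal muscle markers 4 fell and 1 rose in this comparison, with a summed signal of 3380 to 3951 contralaterally and 1299 to 1437 in the ligated DRG. The part of these shifts in the fall of Nefl, Nefm, Nefh and Mapt was not tested.

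In SNL L4 the neuronal markers moved less, with 3 of 8 lower and 1 higher (median -0.17) and summed signals of 8446 to 8856 contralaterally and 7769 to 8877 ipsilaterally. Of 8 large-neuron markers 6 fell and 2 rose, Nefh among the latter, and of 6 nociceptor markers 2 fell and 1 rose. Of 6 fibroblast markers 5 rose there (summed 3121 to 3604 against 4501 to 4744). Blood cell markers fell in 3 of 4 (2785 to 3164 against 918 to 1156), skeletal muscle markers rose in 2 of 5 (2016 to 2192 against 3220 to 3496), and of 5 Schwann cell markers 2 rose and 1 fell, with overlapping sums (8342 to 10420 against 10343 to 12948). The part of these shifts in the L4 values of the 10 genes was not tested. In Sham L5 5 of 8 neuronal markers rose and 1 fell (summed 5956 to 6276 contralaterally, 7368 to 8950 ipsilaterally), and in Sham L4 4 rose and 1 fell (6904 to 7613, 9321 to 10046). In Sham L5 4 of 6 macrophage markers fell and 1 rose, and of 5 Schwann cell markers 3 fell and 2 rose, with a summed signal that was higher ipsilaterally (4087 to 4380 against 5393 to 6365). Of 8 large-neuron markers 4 rose and 0 fell in Sham L5, and 4 rose and 4 fell in Sham L4 (median 0.01). Of 6 nociceptor markers 3 rose and 1 fell in Sham L5, and 1 rose and 0 fell in Sham L4 (median 0.02). The summed signal of either list was higher ipsilaterally at L5 and at L4. The sham rises of the bright members thus stood beside rises of some, not all, other neuronal genes and of most bright genes (92.5% in Sham L5, 73.3% in Sham L4). The part of cell makeup in the rises of the members was not tested.

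The genes whose 8 group means were most like the average profile of Nefl, Nefm and Nefh, among 7098 genes above the median level, were Tubb4b (Pearson r = 0.987), the synaptic SNARE protein Snap25 (0.973), the ankyrin Ank2 (0.964), Abhd8 (0.959) and the proteasome activator Psme4 (0.957), over 8 group means that share rats, sides and array scale. Their ranges differ, from 0.25 (Psme4) to 1.23 (Snap25) on the log2 scale. Among the members, the likeness to that profile was 0.888 for Map1b, 0.77 for Uchl1, 0.733 for Tubb3, 0.675 for Stmn2, 0.454 for Prph, 0.292 for Mapt and -0.495 for Ina.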

How the data were processed

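RNA of 40 single DRGs was measured on 40 arrays, 1 per DRG, which the labels place in 8 groups of 5. The deposited values are intensity on a linear scale, computed by the authors with MAS 5 (version: not given in the sources used here). No detection calls were used. Precision is limited by the number of arrays. Here the 57 control probe sets were left out, signals were transformed to log2(signal + 16), and each side comparison was fitted to its 10 arrays (20 for differences between side effects) with lmFit and eBayes (trend on intensity) from limma 3.58.1, run in R 4.3.3. Benjamini-Hochberg adjustment ran over 31042 probe sets, and calls were made at 0.05. Because the methods name a t-test not said to be paired, rat was not in the fit. Fold changes on this scale understate changes of dim genes.

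Of these probe sets 20826 have 1 symbol in the platform annotation, 436 several and 9780 none listed. They name 14217 genes, and current symbols were found by gene identifier for 20758. A gene was represented by its brightest probe set over all arrays. Named were all 10 members, up to 3 called genes of each list per comparison with the largest changes, genes a result turns on, and the 5 genes most like the neurofilament profile. Dpysl2, Tubb2a and Snap25 were named after their values were seen. The members, lists, tests and alternatives were chosen with earlier results of these data known. Listed genes without a probe set of that symbol were not analysed here. Upstream sequences came from RefSeq (GRCr8), which matched 5 of 10 members.

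The rat numbers pair the DRGs because the same rat gave both sides. The correlation between the 2 sides of a rat, each taken as its difference from the group mean, was -0.06 to 0.04 for SNL L5, -0.01 to 0.04 for SNL L4, -0.14 to 0.01 for Sham L5 and -0.05 to 0.10 for Sham L4. Alternatives were offsets of 1 and 64, quantile normalization, equal medians, a filter on dim probe sets, no trend, a fit of all groups, the rat as block, the methods' t-test, other probe sets and leaving out each array. The fits were tested on simulated data. Python 3.11.15 with scipy 1.17.1 ran the exact tests.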

Additional observations from a re-analysis of the deposited data

Results flagged for a closer look

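In 4 of 80 sets of 5 arrays 1 array stood apart from the other 4, a number that chance gives in about 1 set in 20. These were Ina in ipsilateral Sham L4 of rat 1 (213, nearest 263), Prph in the ligated L5 DRG of rat 8 (1941, nearest 2205), and Prph (1391, nearest 1312) and Stmn2 (1532, nearest 1336) in contralateral Sham L5 of rat 22. Side effects that differed between groups by the test of the difference were, for SNL against sham at L5, Nefl (-1.55), Nefm (-1.24), Nefh (-1.18), Ina (0.47), Uchl1 (-0.88), Map1b (-0.78) and Mapt (-1.34). At L4 they were Nefl (-0.49), Nefm (-0.33), Tubb3 (-0.36), Stmn2 (-0.36), Uchl1 (-0.82), Map1b (-0.69) and Mapt (-0.54). For L5 against L4 within SNL rats they were Nefl (-1.0), Nefm (-0.83), Nefh (-1.06) and Mapt (-0.44), all on the log2 scale.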

How the results depend on the processing

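Of 1656 values of the 10 genes under alternatives, 1545 kept their direction and their side of the threshold, 48 lost a call, 22 gained one and 41 changed sign. Leaving out 1 array gave 1000 of these, of which 982 kept both. With the rat as replicate block no call of a member's brightest probe set changed and the counts stayed at 3 higher and 4 lower in SNL L5, 5 and 2 in SNL L4, 9 and 1 in Sham L5 and 8 and 1 in Sham L4. The causes of the changes below were not tested.

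Quantile normalization gave 3 genes higher and 4 lower in SNL L4, 2 higher in Sham L5, 1 higher and 2 lower in Sham L4, 2 higher for SNL against sham at L5, 1 higher and 4 lower at L4 and 1 higher for L5 against L4. Of all 31042 probe sets it called 2564 higher and 3009 lower in SNL L4, 5261 and 6665 in Sham L5, and 2786 and 2766 in Sham L4. For the differences these were 6241 and 6339 for SNL against sham at L5, 1595 and 2262 at L4, and 3128 and 2582 for L5 against L4. In SNL L5 quantile normalization also called Uchl1 and Map1b lower, where it called 6618 probe sets higher and 6147 lower. Its sign changes were as follows. It turned Nefl (-0.24), Stmn2 (-0.01) and Map1b (-0.18) in SNL L4, Nefh (-0.07) and Prph (-0.06) in Sham L5, Uchl1 (0.00, just below 0) and Mapt (-0.21) in Sham L4, Prph (0.31) and Tubb3 (0.02) for SNL against sham at L5, Nefh (0.08) and Ina (-0.04) at L4, and Uchl1 (-0.01) for L5 against L4. Equal medians gave 0 higher in SNL L5, 2 higher in SNL L4 and 4 lower for SNL against sham at L4, and turned Ina in SNL L5 (-0.06), Stmn2 (-0.01) and Map1b (-0.11) in SNL L4, Mapt in Sham L4 (-0.09), Prph for SNL against sham at L5 (0.07) and Tubb3 for L5 against L4 (-0.04). They also called Uchl1 and Map1b lower in SNL L5. Of all 31042 probe sets equal medians called 5223 higher and 7587 lower in SNL L5, 1586 and 4183 in SNL L4, and 2668 and 1878 for SNL against sham at L4. Without the intensity trend 3 genes were higher in SNL L4, the fit of all 8 groups gave 1 higher for L5 against L4, and the methods' t-test at its threshold of 0.001 gave 0 higher in SNL L5 and 3 in SNL L4. With Benjamini-Hochberg it gave 2 higher and 4 lower in SNL L5, 5 and 2 in SNL L4, 9 and 1 in Sham L5 and 8 and 1 in Sham L4. Of all 31042 probe sets it then called 8489 higher and 4838 lower in SNL L5, 2486 and 2367 in SNL L4, 8785 and 5349 in Sham L5, and 4392 and 2515 in Sham L4. At 0.001 it passed 7387 in SNL L5 and 2510 in SNL L4, in either direction. Without the trend 2677 were higher in SNL L4, and the fit of all 8 groups gave 4335 higher for L5 against L4.

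Other probe sets turned Nefl (-0.52), Ina (0.44), Tubb3 (-0.14), Stmn2 (-0.38), Map1b (-2.59 and -0.32) and Mapt (0.17) in SNL L4, Ina (0.28) and Mapt (-0.21 and -0.28) in Sham L5, and Ina (0.81), Map1b (-0.16) and Mapt (-0.07 and -0.45) in Sham L4. Read also for the differences, an alternative chosen after seeing the data, they turned Ina (-0.36) and Mapt (0.24 and 0.42) for SNL against sham at L4, and Ina (-0.15) and Map1b (0.23) for L5 against L4. Leaving out 1 array moved the higher count for L5 against L4 from 0 to 1 (without contralateral SNL L5 of rat 4, Uchl1 at 0.24, or rat 8, Stmn2 at 0.36). It moved the lower count of SNL against sham at L5 from 6 to 7, that at L4 from 7 to 6 and the higher count of Sham L4 from 8 to 9 (Mapt at 0.18 without the ipsilateral array of rat 14), and it turned Prph for SNL against sham at L5 to between -0.07 and 0.04 (above 0 without ipsilateral Sham L5 of rat 22 or either SNL L5 array of rat 8) and Tubb3 for L5 against L4 to -0.05 without the ligated L5 array of rat 4 (0.12 without the contralateral one). Dim signals limit the second Ina probe set (group means of 22.4 to 78.5) and the second Tubb3 probe set (group means of 3.02 to 22.3).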
